A study of Homo sapiens with 5 samples.

Results

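DNA methylation was examined at the 4 Notch receptor genes (NOTCH1, NOTCH2, NOTCH3 and NOTCH4), at 5 genes for their ligands (JAG1, JAG2, DLL1, DLL3 and DLL4) and at HES1, a transcriptional repressor that the pathway switches on. These 10 genes were represented by 174 of the 288391 windows of 1000 bases measured by reduced representation bisulfite sequencing (RRBS), in which DNA is cut at CCGG and CpG cytosines that resist bisulfite conversion are scored as methylated. A window was taken if the authors' table assigned it to a member by gene symbol or if it overlapped the gene with 1500 bases on either side. Of the 174 windows, 92 qualified by symbol, 157 by position and 75 by both, and the 82 that qualified by position only are listed in the table under no gene or under a neighbour or embedded gene. This held for 33 windows of NOTCH1 (MIR4673, MIR4674 or no gene), 11 of NOTCH3 (MIR6795) and 10 of NOTCH4 (GPSM3).

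The cells were the human iPSC line 201B7, labelled HPS0063 and of genotype WT, an induced pluripotent stem cell line grown without feeder cells. They were exposed for 48 h to 0.1% DMSO (the vehicle control), to 1 nM etoposide, to 1 µM propyl gallate, to 1 µM theophylline or to 10 nM 5-aza-dc. Etoposide is a topoisomerase II poison, propyl gallate an antioxidant food additive, theophylline a methylxanthine, and 5-aza-dc a deoxycytidine analogue that traps DNA methyltransferases. The study chose the first pair of chemicals as hypermethylation agents and the other pair as hypomethylation agents, and the question here was how the methylation of the Notch genes differed from the vehicle control after each. There was 1 library per condition from 1 line, so the spread between replicates is unknown and no difference has a replicate check.

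The pathway works between neighbouring cells. A Delta-like or Jagged ligand on 1 cell binds a Notch receptor on the next, ADAM10 and γ-secretase then cut the receptor, and the freed intracellular domain joins the DNA-binding protein RBPJ and a Mastermind coactivator to turn on genes such as HES1. Notch signalling is known for setting the choice between progenitor and differentiated states in many tissues. In mammalian genomes, CpG-rich promoters are mostly free of methylation while the bodies of genes are mostly methylated.

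The stretches before the gene starts show how much CpG each gene offers to the assay. Of the 10 genes, 8 had an entry in the RefSeq promoter table (GRCh38.p14), and DLL1 and DLL3 had none. The 250 bases upstream of the start are printed for 6 genes, 5′ to 3′ on the strand of the gene, with each CpG in capitals. HES1, DLL4, JAG2 and NOTCH3 are shown because windows over them carry the promoter results below, and NOTCH2 and NOTCH4 because no window covered theirs.
HES1 (chr3:194135898-194136147, + strand): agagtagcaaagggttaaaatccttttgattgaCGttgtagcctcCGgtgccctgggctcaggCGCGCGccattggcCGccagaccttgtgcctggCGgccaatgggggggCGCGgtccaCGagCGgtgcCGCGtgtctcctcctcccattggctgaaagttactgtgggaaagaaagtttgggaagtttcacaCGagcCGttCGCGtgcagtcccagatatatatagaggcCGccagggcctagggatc
DLL4 (chr15:40929090-40929339, + strand): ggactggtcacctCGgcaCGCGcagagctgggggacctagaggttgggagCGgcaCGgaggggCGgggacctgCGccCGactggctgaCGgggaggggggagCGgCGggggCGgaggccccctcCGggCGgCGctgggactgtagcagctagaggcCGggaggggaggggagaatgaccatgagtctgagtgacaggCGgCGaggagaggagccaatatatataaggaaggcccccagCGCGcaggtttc
JAG2 (chr14:105168777-105169026, - strand): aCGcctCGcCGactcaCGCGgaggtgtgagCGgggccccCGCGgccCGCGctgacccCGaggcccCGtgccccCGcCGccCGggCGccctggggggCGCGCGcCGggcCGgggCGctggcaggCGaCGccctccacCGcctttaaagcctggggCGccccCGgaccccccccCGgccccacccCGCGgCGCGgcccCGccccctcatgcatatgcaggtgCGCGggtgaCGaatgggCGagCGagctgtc
NOTCH3 (chr19:15200996-15201245, - strand): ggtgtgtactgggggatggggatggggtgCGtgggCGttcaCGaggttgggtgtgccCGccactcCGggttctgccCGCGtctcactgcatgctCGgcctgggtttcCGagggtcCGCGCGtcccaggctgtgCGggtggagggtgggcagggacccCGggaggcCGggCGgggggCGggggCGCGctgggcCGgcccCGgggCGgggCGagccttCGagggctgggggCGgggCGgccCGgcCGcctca
NOTCH2 (chr1:120069663-120069912, - strand): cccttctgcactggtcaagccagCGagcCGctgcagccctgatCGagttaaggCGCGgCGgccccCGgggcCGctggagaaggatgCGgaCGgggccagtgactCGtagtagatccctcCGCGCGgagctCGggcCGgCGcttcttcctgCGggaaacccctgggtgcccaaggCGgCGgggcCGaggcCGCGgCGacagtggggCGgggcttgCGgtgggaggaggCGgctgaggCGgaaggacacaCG
NOTCH4 (chr6:32224068-32224317, - strand): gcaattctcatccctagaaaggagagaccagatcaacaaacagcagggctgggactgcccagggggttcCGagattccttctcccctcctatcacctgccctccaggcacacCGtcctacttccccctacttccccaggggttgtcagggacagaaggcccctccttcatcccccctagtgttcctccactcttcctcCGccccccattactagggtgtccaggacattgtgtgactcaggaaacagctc
The 8 upstream stretches held 3 to 38 CpG, against a median of 11 over the 35116 promoters of the table. JAG2 had 38, NOTCH1 33, NOTCH2 29, NOTCH3 28, DLL4 20, HES1 18, JAG1 17 and NOTCH4 3. The cutting site CCGG occurred in all of them but that of NOTCH4, and in 58.5% of all promoters. The letters GTGGGAA, a form of the RBPJ motif, were searched on both strands and occurred once, in HES1 from position 166 of the printed stretch, against 5.43% of all promoters. The shorter core TGGGAA, which overlaps that match, stood in HES1 at positions 167 and 181, and occurred on either strand in 20.8% of all promoters. Both matches lie in the part of the stretch covered by the start window of HES1. A match of letters is a description of the sequence and not a measured binding site. These motifs hold no CpG themselves.

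The β-value, the share of methylated calls among all CpG calls of a window, fell into a low and a high class. Of the 174 windows, 41 had a mean β-value over the 5 libraries under 10%, 124 had one over 70% and 9 lay between. Windows under 10% made up 23.6% of the Notch windows and 9.61% of all windows. The Notch windows also lay more often in CpG islands than the rest, with 76 of 174 (43.7%) against 17.3% of all. Within islands the share under 10% was 51.3% for the Notch genes and 47.8% for all.

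**Figure D1:**
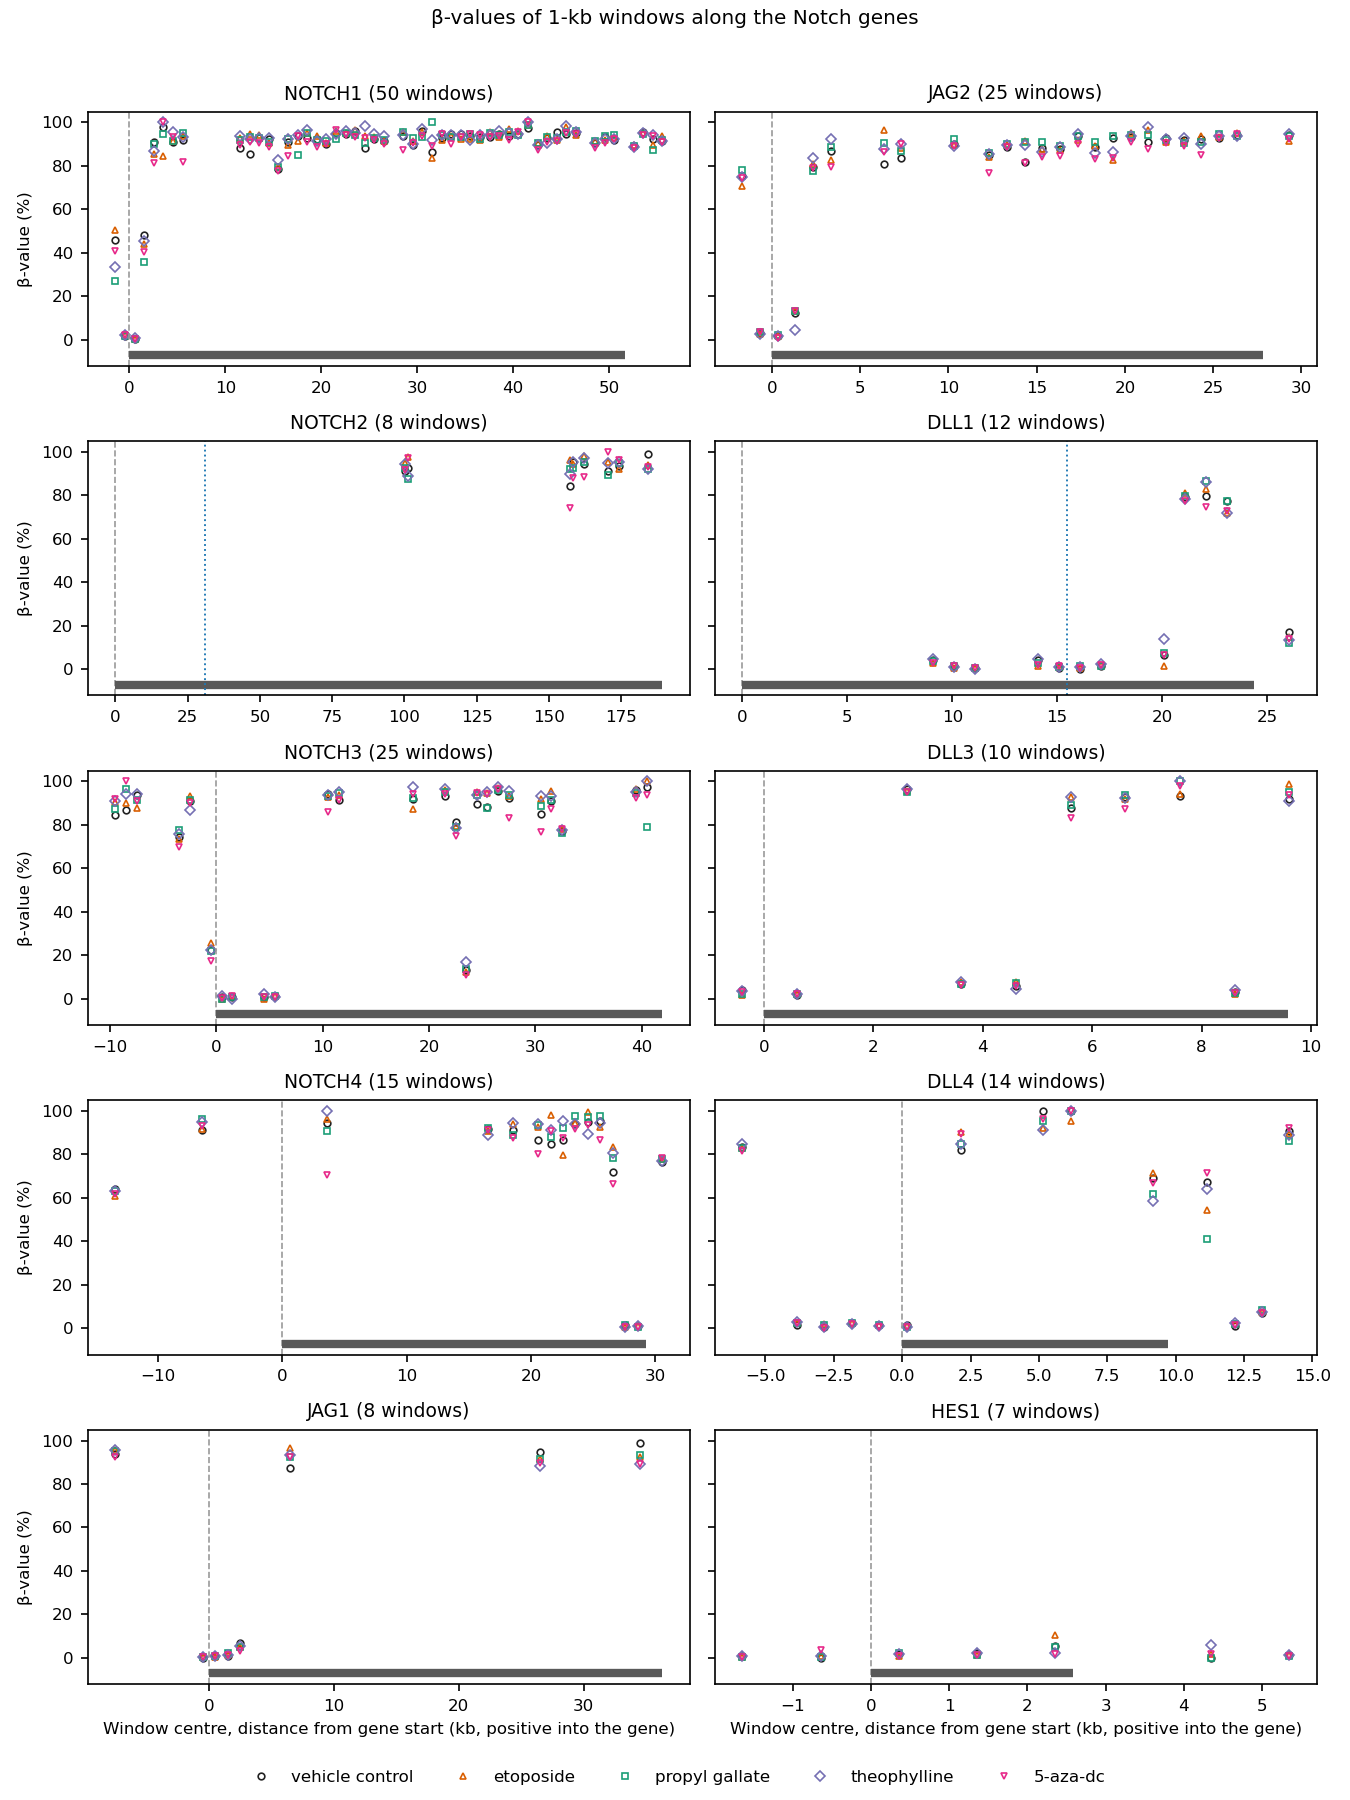
β-values (%) of all 174 windows in the 5 libraries against the distance of the window centre from the gene start in kb, 1 panel per gene. The dark bar is the gene, the dashed line its start in the deposited table and the dotted line the RefSeq start where it differs by over 1000 bases. Windows at the starts of 7 genes and all 7 windows of HES1 lie near 0, while the bodies of NOTCH1, NOTCH3 and JAG2 lie mostly above 70%, and the 5 libraries follow the same course.

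Among the receptors, NOTCH1 was methylated over most of its body and nearly free of methylation at its start. Of its 50 windows, 46 had a mean β-value over 70%. The window that holds the start (chr9:136546001-136547000) had a β-value of 1.87% in the vehicle control, 2.34% with etoposide, 1.79% with propyl gallate, 2.07% with theophylline and 2.02% with 5-aza-dc. None of the 4 differences from the vehicle control was called, with adjusted p from 0.291 to 0.919 by Fisher's exact test. The window just inside the gene (chr9:136545001-136546000) lay between 0.478% and 0.636%. All 20 CpG-island windows farther than 2 kb from the start were methylated, with mean β-values from 86.9% to 99.0%. Of the 23 island windows, only the one 1.55 kb into the gene lay between the classes.

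That window and its counterpart upstream form the edges of the unmethylated stretch. The inner edge (chr9:136544001-136545000, 1.55 kb into the gene) had 48.3% in the vehicle control, 44.0% with etoposide, 36.0% with propyl gallate, 45.6% with theophylline and 40.3% with 5-aza-dc. The outer edge (chr9:136547001-136548000, 1.45 kb upstream) had 45.8%, 50.7%, 26.9%, 33.5% and 40.8% in the same order. Propyl gallate gave the lowest value at both edges.

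NOTCH3 had a similar course, with 4 windows under 10% against 2 in NOTCH1. Of these 4, 2 lay within 2 kb of the start and 2 lay farther away. The stretch between the 2 pairs was not fully covered. Its start window (chr19:15200001-15201000) had 0.735% in the vehicle control, 0.142% with propyl gallate, 1.12% with theophylline and 0.356% with 5-aza-dc. With etoposide, 0 of 2278 calls were methylated, which allows a share of up to 0.132%. The next window upstream (chr19:15201001-15202000) had 22.6%, 25.8%, 22.2%, 22.6% and 17.4% in the order vehicle control, etoposide, propyl gallate, theophylline and 5-aza-dc. The printed NOTCH3 stretch lies almost wholly in this partly methylated window. Of the 25 windows of NOTCH3, 19 had a mean over 70%, and 1 island window inside the gene (chr19:15177001-15178000) stood at 10.9% to 17.0% between methylated neighbours.

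NOTCH2 and NOTCH4 had no window at their starts. The 8 windows of NOTCH2 lay far inside the gene, at least 100 kb from the start in the table, and had mean β-values from 87.4% to 94.8%. NOTCH2 has near-identical partial copies (the NOTCH2NL genes) elsewhere on the same chromosome, so its values are uncertain where reads could come from either. The start of NOTCH2 in the table lies 31117 bases from that in RefSeq, and neither was covered. Of the 15 windows of NOTCH4, 12 had a mean over 70%. The 2 unmethylated ones, 0.848% and 0.980% on average, lie at the 3′ end of the gene, and the table gives 1 of them as promoter of the neighbouring GPSM3.

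The ligand genes carried more unmethylated windows than the receptors, 26 of 69 against 8 of 98. JAG1 and JAG2, the Jagged ligands, were unmethylated at their starts. The start window of JAG1 (chr20:10673001-10674000) had 0.723% in the vehicle control, 0.280% with etoposide, 0.816% with propyl gallate, 0.694% with theophylline and 0.910% with 5-aza-dc. That of JAG2 (chr14:105168001-105169000) had 1.84%, 1.94%, 2.11%, 1.71% and 0.846% in the same order. Outside this promoter JAG2 resembled NOTCH1, with 22 of 25 windows over 70% and 7 of 7 island windows beyond 2 kb methylated.

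Of the ligands and receptors, the Delta-like ligands DLL1 and DLL4 had the lowest mean β-values in the vehicle control, 22.8% and 43.5%, followed by JAG1 at 48.0% and DLL3 at 48.4%. DLL4, a ligand best known from blood vessels, had β-values of 1.43%, 1.19%, 0.748%, 0.886% and 0.460% at its start (chr15:40929001-40930000) in the vehicle control and with etoposide, propyl gallate, theophylline and 5-aza-dc. Its 7 island windows, 5 from 3.84 kb upstream to the start and 2 beyond the end of the gene, all had means under 10%. DLL3, a divergent ligand that acts inside the cell on its own cell's receptors, had 4.24%, 1.68%, 2.40%, 3.64% and 3.01% at its start (chr19:39498001-39499000). DLL3 alternated along its short body, with 5 windows under 10% and 5 over 70%. DLL1 had 8 of 12 windows under 10%. The start of DLL1 in the table lies 15487 bases upstream of the RefSeq start, and the window at the RefSeq start (chr6:170291001-170292000) had 0.782%, 0.897%, 1.03%, 0.904% and 1.68% in the same order. The table lists 5 of the DLL1 windows under FAM120B, the neighbouring gene.

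HES1 had no methylated window at all. Its 7 windows, all in CpG islands, had mean β-values from 0.617% to 5.11%. The start window (chr3:194136001-194137000) had 1.84% in the vehicle control, 0.755% with etoposide, 2.36% with propyl gallate, 1.86% with theophylline and 1.08% with 5-aza-dc. The window upstream of it (chr3:194135001-194136000), which holds the first part of the printed stretch, was covered by only 45 calls in its shallowest library, and in the vehicle control 0 of 122 calls were methylated, which allows up to 2.46%. Of the 4 comparisons with the vehicle control, none of the start windows of NOTCH1, JAG1, DLL3 and HES1 was called, with adjusted p of 0.0314 or above by Fisher's exact test.

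All 7 members with a start window in the table were under 10% there, against 54.4% of the 18626 start windows of all genes and 78.5% of those in CpG islands. As a check of the cell type, the start windows of the pluripotency genes SALL4, LIN28A, DPPA4, DNMT3B and PRDM14 had at most 2.86% in each library. That of L1TD1 had 10.3% to 16.0%, that of ZFP42 37.2% to 60.9% and that of POU5F1 83.2% to 87.9%, while NANOG and TDGF1 had none. The starts of POU5F1 and ZFP42 given in the table were thus methylated in cells labelled pluripotent, and no other start of these genes was examined.

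**Figure D2:**
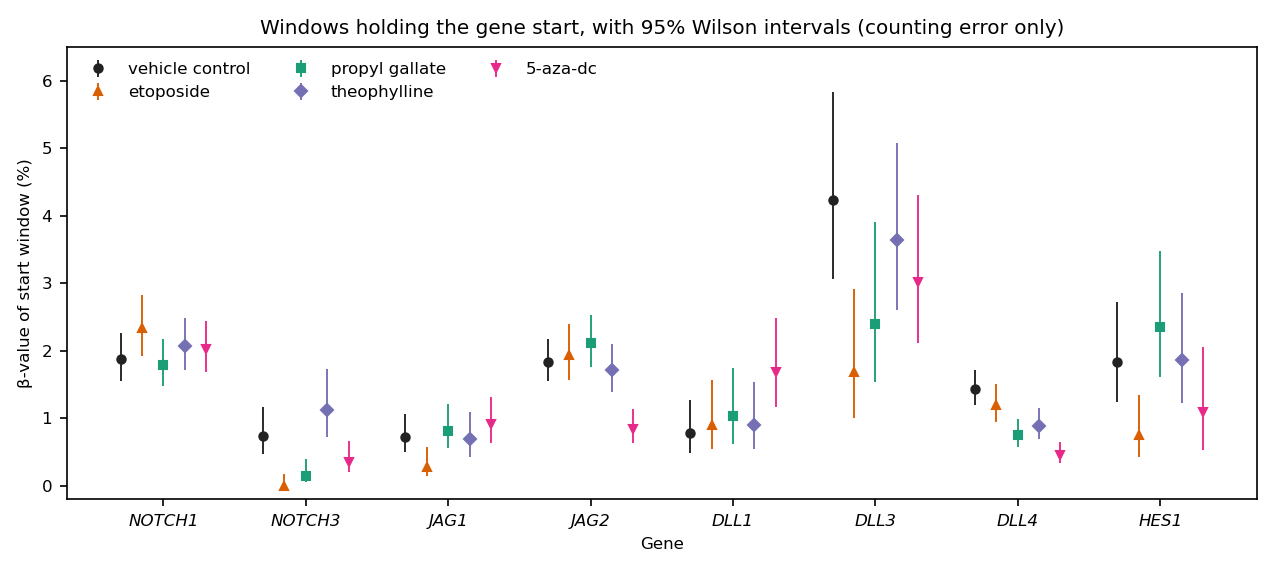
β-value (%) of the window that holds the start of each gene, in the 5 libraries, with 95% Wilson intervals from the CpG calls that cover counting error only. For DLL1 the RefSeq start is used, and NOTCH2 and NOTCH4 have no such window. All values lie under 5%, and the lowest are NOTCH3 after etoposide at 0 and after propyl gallate at 0.142%.

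The windows had a median of 1101 calls in the vehicle control for the Notch genes and 499 for all windows, so small differences were easier to detect at the Notch genes. Over all windows a library held between 188844850 and 228919184 calls, and the mean β-value was 79.4% in the vehicle control, 79.9% with etoposide, 79.9% with propyl gallate, 80.4% with theophylline and 78.4% with 5-aza-dc. Calls of the vehicle control and of a chemical were set against each other window by window with a two-sided Fisher's exact test, and a window was called where the p adjusted over all 288391 windows was under 0.01. The test compares 2 libraries and not 2 conditions. A read and its PCR copies can each give more than 1 call, so p-values are too small. With all calls divided by 2, the Notch windows called were 2 with etoposide, 4 with propyl gallate, 2 with theophylline and 5 with 5-aza-dc. The shares called over all windows were then 1.16%, 1.17%, 1.26% and 2.71% in the same order. All 4 comparisons share the 1 vehicle control library.

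After 5-aza-dc the Notch windows were mostly lower than in the vehicle control. Of the 174 windows, 30 were called (17.2%), 28 of them lower and 2 higher. Over all windows the share called was 14.0%, with 10.4% lower and 3.55% higher. The mean β-value of the Notch windows was 67.1% with the vehicle and 65.8% with 5-aza-dc, a difference of -1.30 percentage points (95% counting interval -1.63 to -0.960), against -1.03 over all windows. It was -2.03 with all calls pooled and -0.747 as a median over windows. Among windows over 70% the difference was -1.55 points (-1.96 to -1.13) for the Notch genes and -0.974 for all. The 5-aza-dc library was the lowest of the 5 in 75 of the 174 windows (43.1%), against 35.1% of all windows. With at least 1000 calls in every library, 19 of 76 Notch windows were called, and 21.6% of all such windows, so the share called was higher among deep windows in both.

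NOTCH1 and JAG2 held most of the windows called lower after 5-aza-dc, with 12 of 50 and 7 of 25, followed by NOTCH3 with 5 of 25. Over all windows 10.4% were called lower, and 18.1% of those with at least 1000 calls in every library. Median calls in the vehicle control were 1976 in NOTCH1, 1314 in JAG2 and 859 in NOTCH3, against 499 over all windows. The largest called fall lay 5.55 kb into NOTCH1 (chr9:136540001-136541000), where β-values were 91.8% in the vehicle control, 93.8% with etoposide, 95.2% with propyl gallate, 93.3% with theophylline and 81.6% with 5-aza-dc. The difference was -10.2 points (95% interval -16.0 to -4.51, adjusted p = 0.00466, Fisher's exact test), and only the 5-aza-dc library stood apart. In the window next to the inner edge of NOTCH1 (chr9:136543001-136544000) the values were 90.9%, 85.5%, 90.0%, 87.0% and 81.1% in the order vehicle control, etoposide, propyl gallate, theophylline and 5-aza-dc. Here the difference was -9.80 points (-13.4 to -6.23, adjusted p = 2.85e-06, Fisher's exact test).

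The start windows of JAG2 and DLL4, both unmethylated, were also called lower after 5-aza-dc. Of the 41 Notch windows under 10%, 4 were called lower and 0 higher, beside 7.08% and 1.86% of all windows under 10%. Called or not, 21 of the 41 lay below the vehicle control and 20 above it. The start windows of NOTCH1, JAG1 and DLL1 (RefSeq start) were among those above. The mean of all windows under 10% went from 2.39% with the vehicle to 2.03% with 5-aza-dc. Whether unconverted cytosines account for such small shifts was not tested. The JAG2 start window had 45 methylated of 5273 calls after 5-aza-dc and 137 of 7462 in the vehicle control (adjusted p = 7.16e-05, Fisher's exact test), and it was lower than in each of the other 4 libraries. At the DLL4 start, the β-value of 0.460% after 5-aza-dc was 0.969 points under the vehicle control (95% interval -1.28 to -0.666, adjusted p = 2.70e-08, Fisher's exact test), with 35 of 7535 methylated calls against 114 of 7975, and it was also called with propyl gallate (adjusted p = 0.00173). The partly methylated window upstream of NOTCH3 fell by 5.22 points (adjusted p = 0.00128, Fisher's exact test) and was lowest after 5-aza-dc in the comparison with each other library. The 5-aza-dc library differed from each of the other 4 in 9 Notch windows (4 in NOTCH1, 2 in JAG2 and 3 in NOTCH3), a pattern seen in 2.86% of all windows.

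The 2 windows that were higher after 5-aza-dc lay in DLL4 and NOTCH3. In DLL4 (chr15:40931001-40932000, 2.16 kb into the gene) β-values were 81.9% in the vehicle control, 90.2% with etoposide, 85.0% with propyl gallate, 84.7% with theophylline and 89.3% with 5-aza-dc. The rise was 7.35 points after 5-aza-dc (4.26 to 10.4, adjusted p = 9.12e-05, Fisher's exact test). In NOTCH3 (chr19:15176001-15177000) the values were 89.8%, 95.04%, 93.9%, 93.7% and 94.6% in the same order, so that the vehicle control was the lowest library.

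After etoposide 20 of the 174 windows were called (11.5%), 15 higher and 5 lower. The share over all windows was 10.1%, with 6.37% higher and 3.74% lower. The mean difference was 0.544 points (0.207 to 0.881), and the 0.513 over all windows lies inside this interval. Of the called windows, 3 differed by at least 10 points, beside 2.32% of all windows. None of these 3 stayed called with calls divided by 2. The windows that did lay in JAG2 (from chr14:105154001, a rise of 9.83 points) and JAG1 (from chr20:10667001, a rise of 9.34 points). JAG2 had the largest called rise, 6.32 kb into the gene (chr14:105162001-105163000), with 80.7% in the vehicle control, 96.6% with etoposide, 90.7% with propyl gallate, 87.6% with theophylline and 86.5% with 5-aza-dc. The vehicle control was again the lowest and etoposide the highest library, and the rise was 15.9 points (9.62 to 22.1, adjusted p = 7.04e-05, Fisher's exact test).

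The other 2 lay in NOTCH4, outside CpG islands. In the first (chr6:32202001-32203000) β-values were 85.0% in the vehicle control, 98.4% with etoposide, 87.8% with propyl gallate, 91.3% with theophylline and 90.9% with 5-aza-dc. The rise after etoposide was 13.3 points (5.97 to 20.4, adjusted p = 0.00504, Fisher's exact test), on 104 calls. In the second (chr6:32197001-32198000), at the shore of the GPSM3 promoter island, the values were 71.8%, 83.4%, 78.6%, 80.9% and 66.3% in the same order, with a rise of 11.6 points after etoposide (6.26 to 16.5, adjusted p = 0.000607, Fisher's exact test). The largest called falls after etoposide were smaller, while falls of up to 13.5 points in windows of few calls were not called. A window upstream of NOTCH3 (chr19:15208001-15209000) had 93.8% in the vehicle control and 87.8% after etoposide, and 91.5%, 94.2% and 91.0% after propyl gallate, theophylline and 5-aza-dc. A window in the body of NOTCH1 (chr9:136511001-136512000) had 94.8% and 92.2%, with 93.4%, 94.2% and 93.4% in the other libraries. Both falls were called, at adjusted p = 0.00244 and 0.00512 (Fisher's exact test).

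Among the 41 windows under 10%, 3 were called lower after etoposide, in NOTCH3, HES1 and DLL1, and 1 higher, in DLL4. These were 7.32% and 2.44% of the 41, beside 2.98% called lower and 2.32% higher of all windows under 10%. The DLL1 window (chr6:170296001-170297000) had 1.66% in the vehicle control and 0.689% with etoposide, and the DLL4 window (chr15:40926001-40927000) 0.758% and 2.10% (adjusted p = 0.00851 and 0.0037, Fisher's exact test). The NOTCH3 start window had 18 methylated of 2448 calls in the vehicle control and 0 of 2278 after etoposide (adjusted p = 0.00026, Fisher's exact test). In HES1, the window over the gene body (chr3:194137001-194138000) had 2.33% in the vehicle control, 1.31% with etoposide, 1.54% with propyl gallate, 2.47% with theophylline and 1.43% with 5-aza-dc. It was called after etoposide (adjusted p = 0.00266) and after 5-aza-dc (adjusted p = 0.00735, Fisher's exact test), and the vehicle control and theophylline were the higher libraries. HES1 had no other call.

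After propyl gallate 12 windows were called (6.90%), 6 higher and 6 lower, beside 10.3% of all windows, 6.55% higher and 3.71% lower. The mean difference of 0.188 points (-0.131 to 0.507) lay within counting error of 0, and it was 0.566 over all windows. It was 0.789 with all calls pooled and -0.169 with windows taken by gene symbol alone. The windows with the largest called falls lay in NOTCH1 and NOTCH3. The outer edge of the NOTCH1 promoter fell from 45.8% to 26.9%, a difference of -18.9 points (95% interval -23.9 to -13.7, adjusted p = 8.04e-10, Fisher's exact test). The inner edge fell from 48.3% to 36.0%, a difference of -12.3 points (-15.3 to -9.33, adjusted p = 1.03e-12, Fisher's exact test). Between them the start window had 1.79%. A window at the 3′ end of NOTCH3 (chr19:15160001-15161000) had 97.6% in the vehicle control, 100% with etoposide, 78.9% with propyl gallate, 100% with theophylline and 93.8% with 5-aza-dc. The difference of -18.7 points rested on 65 and 82 calls, with an interval from -30.7 to -8.88 (adjusted p = 0.00364, Fisher's exact test). These 3 windows were the called ones with at least 10 points, beside 2.22% of all windows.

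The 2 largest called rises after propyl gallate and after theophylline lay in the same JAG2 and NOTCH1 windows, and these comparisons share the vehicle control. In JAG2 (chr14:105154001-105155000, 14.3 kb into the gene) β-values were 81.6% in the vehicle control, 91.4% with etoposide, 91.2% with propyl gallate, 89.7% with theophylline and 81.5% with 5-aza-dc. The vehicle control and 5-aza-dc were low, and the other 3 libraries were 8.05 to 9.83 points above the vehicle control. In NOTCH1 (chr9:136533001-136534000, 12.5 kb into the gene) the values were 85.5%, 94.8%, 93.5%, 92.6% and 91.0% in the same order. Here the vehicle control was the lowest library and was called against all but the 5-aza-dc library (adjusted p = 0.0463, Fisher's exact test), and no pair of the chemical libraries was called. Gene by gene, the mean difference after propyl gallate had an interval above 0 for JAG2, NOTCH4 and DLL3. It was 1.59 points (0.892 to 2.30) for JAG2, 2.001 (0.432 to 3.57) for NOTCH4 and 1.05 (0.120 to 1.97) for DLL3. With all calls pooled these means were 2.74, 0.471 and 0.376. DLL4 moved the other way on average after propyl gallate, with a mean difference of -2.67 points over its 14 windows (-4.53 to -0.812). The DLL4 mean was -0.918 with at least 30 calls in every library and turned to 0.484 when all calls were pooled. The intervals of the other members included 0. The largest fall in DLL4 after propyl gallate, to 40.9% from 67.3% in the vehicle control (chr15:40940001-40941000), was not called. That window had as few as 12 calls in a library.

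After theophylline 16 windows were called (9.20%), 12 higher and 4 lower, beside 11.0% of all windows, 8.13% higher and 2.86% lower. The mean difference was 0.846 points (0.510 to 1.18), against 0.975 over all windows, and 2.09 with all calls pooled or 0.391 by gene symbol alone. NOTCH3 and NOTCH4 had the highest means, 2.13 points (1.39 to 2.86) and 2.22 points (0.736 to 3.71), or 3.52 and 1.09 with all calls pooled, while JAG1 had -1.24 (-2.24 to -0.237), which became 1.58 with all calls pooled, and DLL4 -1.28 (-3.79 to 1.23). The theophylline library was the highest of the 5 in 54 windows (31.0%), against 26.8% of all windows.

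The smallest p among the Notch windows in the 4 comparisons with the vehicle control lay in a window just inside JAG2. This window is centred 1.32 kb into the gene (chr14:105167001-105168000), next to the start window. Its level was 12.2% in the vehicle control (386 of 3171 calls), 13.5% after etoposide (303 of 2247), 13.4% after propyl gallate (336 of 2499), 4.52% after theophylline (129 of 2855) and 13.4% after 5-aza-dc (470 of 3500). Theophylline alone was low, and the other 3 chemicals lay 1.25 to 1.30 points above the vehicle control. The difference was -7.65 points (95% interval -9.03 to -6.29, adjusted p = 1.22e-23, Fisher's exact test), and the window differed from each of the other 4 libraries, as 0.881% of all windows did for theophylline. With calls divided by 2 its adjusted p was 7.69e-11. The neighbouring start window, at 1.71% after theophylline and 1.84% in the vehicle control, did not differ beyond counting error (-0.586 to 0.352 points).

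The outer edge of the NOTCH1 promoter was the only called window with at least 10 points after theophylline, beside 2.27% of all windows. It fell by 12.3 points (95% interval -17.3 to -7.14, adjusted p = 0.000124, Fisher's exact test). After 5-aza-dc the only such window was that 5.55 kb into NOTCH1, beside 3.64% of all windows. Of all called differences of at least 10 points, only those of the NOTCH1 edges after propyl gallate stayed called with calls divided by 2.

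**Figure D3:**
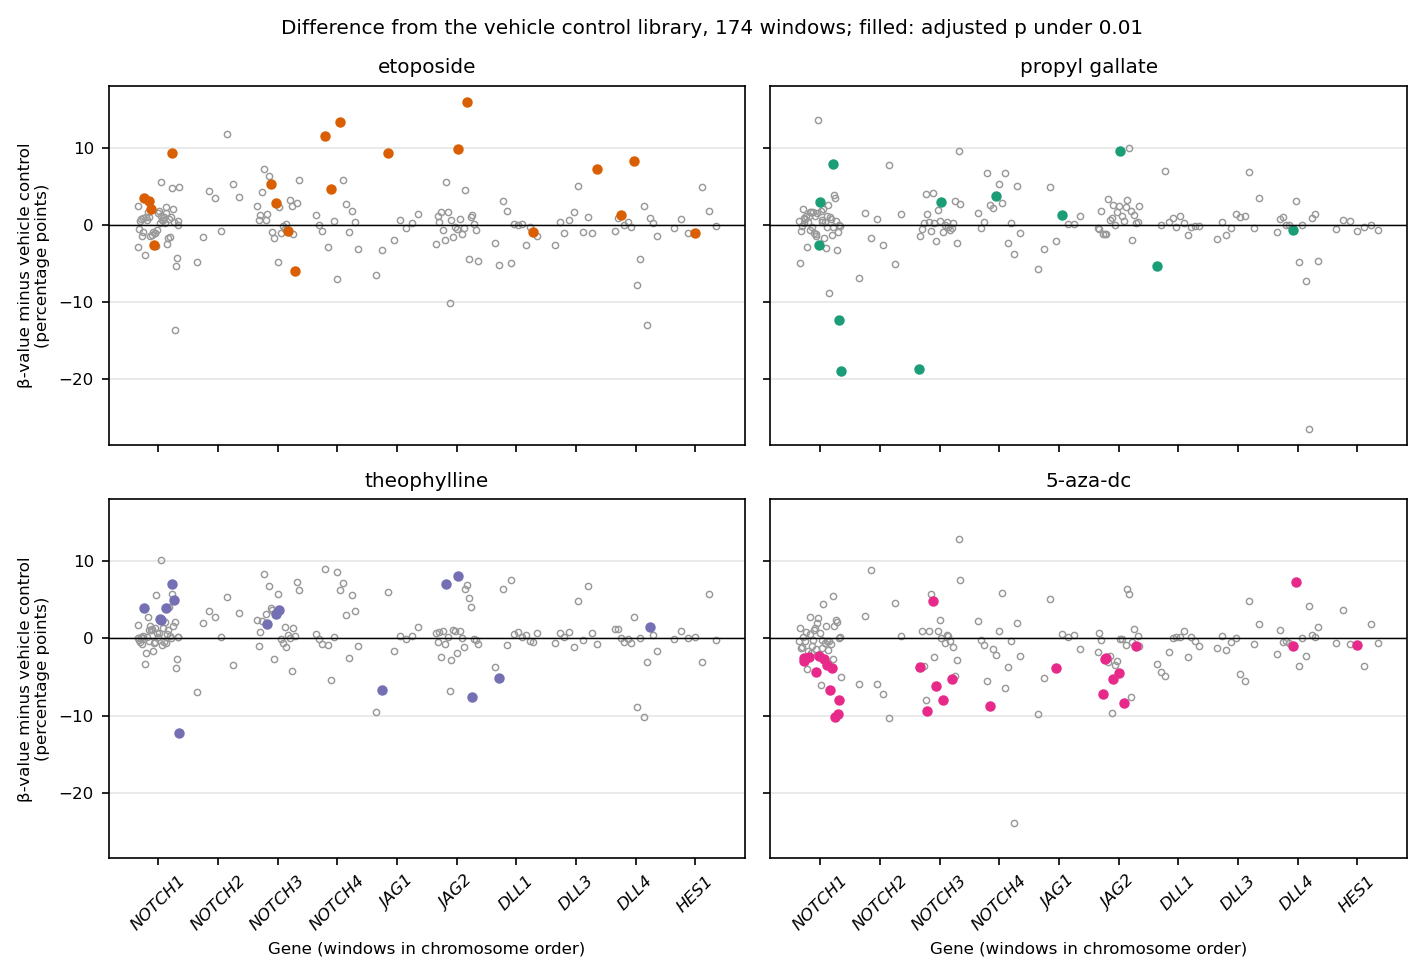
Difference in β-value from the vehicle control library in percentage points for the 174 windows, in chromosome order within each gene, 1 panel per chemical. Filled points are called windows (Fisher's exact test on 2 libraries, adjusted p below 0.01), and open points do not. After 5-aza-dc 28 of 30 filled points lie below 0, after etoposide 15 of 20 lie above, and several open points with large differences have few calls.

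**Figure D4:**
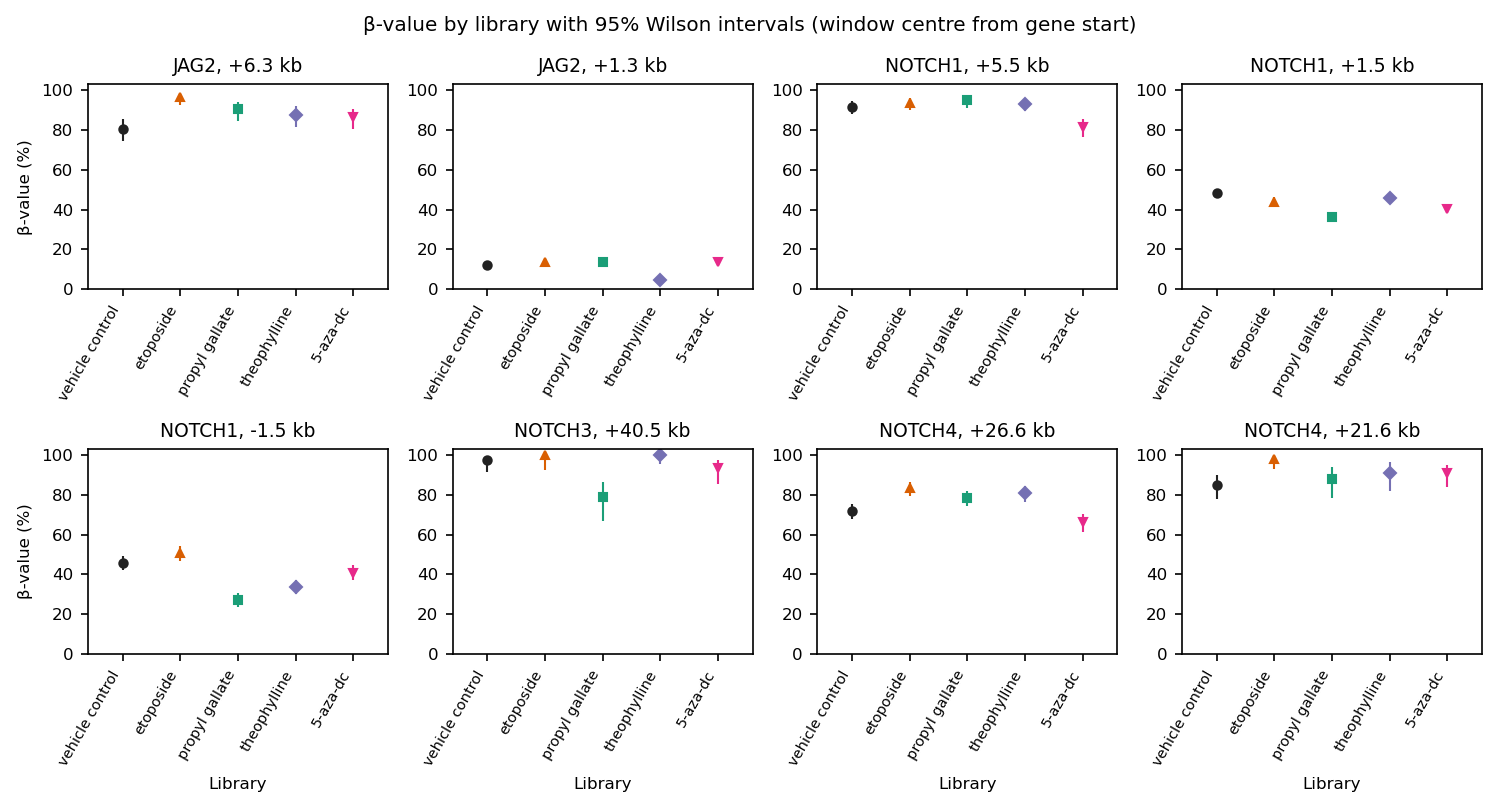
β-value (%) with 95% Wilson intervals in each library for the 7 windows with a called difference of at least 10 points and for the JAG2 window 1.32 kb into the gene. Panel titles give the window centre relative to the gene start. Theophylline stands apart in the JAG2 window at 4.52%, propyl gallate is lowest at both NOTCH1 edges, and 5-aza-dc is lowest 5.55 kb into NOTCH1.

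Gene by gene, the mean difference after 5-aza-dc was under 0 for 9 of the 10 members, and the interval lay under 0 for 6 of them, NOTCH1, NOTCH3, NOTCH4, JAG1, JAG2 and DLL1. NOTCH4 had -2.97 points (-4.79 to -1.15) and JAG2 -2.04 (-2.78 to -1.29). The value of NOTCH4 was -1.48 without 1 shallow window (chr6:32220001-32221000), which was not called and had 70.6% on 28 calls with 5-aza-dc and 94.4% on 72 calls in the vehicle control. With all calls pooled JAG1 turned from -1.73 to 0.339, JAG2 was at -0.207, NOTCH4 at -1.29, NOTCH3 at -4.42 in place of -0.929 and DLL1 at -2.72 in place of -1.39, so the order of the genes depended on the weighting. DLL4 was at 0.293 (-1.64 to 2.23). After etoposide the receptors NOTCH2, NOTCH3 and NOTCH4 had means of 2.68 (0.875 to 4.49), 1.28 (0.467 to 2.10) and 1.84 (0.345 to 3.33). The ligand DLL3 was at 1.04 (0.00592 to 2.07) and DLL1 at -1.04 (-1.74 to -0.341). The intervals of the other members included 0, among them NOTCH1, the receptor with the most windows, at 0.166 (-0.365 to 0.696). No single window of NOTCH2 was called in any of the 4 comparisons. With all calls pooled the mean of NOTCH3 after etoposide turned to -2.48 and that of NOTCH2 was 1.33.

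**Figure D5:**
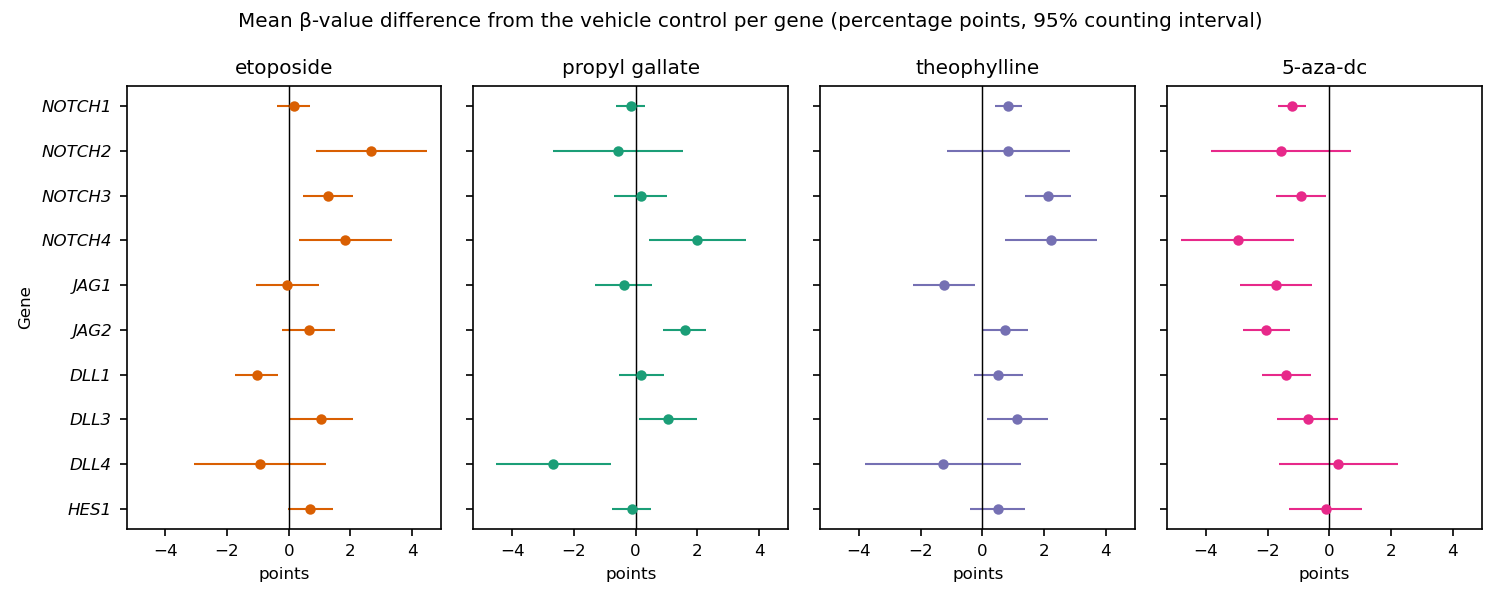
Mean difference in β-value from the vehicle control over the windows of each gene, in percentage points, with 95% counting intervals, 1 panel per chemical. After 5-aza-dc 9 of 10 means lie below 0, with NOTCH4 at -2.97 (-1.48 without 1 shallow window). The panels of etoposide, propyl gallate and theophylline hold means on both sides of 0.

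Of the 174 windows, 64 (36.8%) were called in at least 1 of the 4 comparisons with the vehicle control, beside 31.9% of all windows. The other 110 were called in none, and 0 were called in all 4, beside 0.608% of all windows. NOTCH1 had 23 of the 64 among its 50 windows, NOTCH3 12 among 25 and JAG2 11 among 25. None of the called differences reached 25 points. The comparison among all 10 pairs of libraries put 5-aza-dc apart. It differed from etoposide in 39 windows (22.4%, beside 15.3% of all windows), from propyl gallate in 39 (22.4%, beside 15.6%) and from theophylline in 44 (25.3%, beside 17.2%). The other chemicals differed less from each other, propyl gallate from etoposide in 8 windows (4.60%, beside 9.67%), theophylline from etoposide in 19 (10.9%, beside 9.69%) and theophylline from propyl gallate in 15 (8.62%, beside 9.66%). For comparison, the vehicle control differed from these 3 libraries in 20, 12 and 16 windows.

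The log2 ratio of β-values, the measure the study averaged, averaged -0.04 with etoposide, -0.00 with propyl gallate, 0.02 with theophylline and -0.09 with 5-aza-dc over the Notch windows above 0. For etoposide it had the opposite sign to the mean difference in points. Ratios give unmethylated windows more weight, and with windows of at least 10% only it was 0.01.

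The other genes of the pathway gave 711 windows from 41 of 43 genes on a list of RBPJ, the Mastermind coactivators, the HES and HEY repressors, the Deltex and Fringe enzymes, the ADAM and γ-secretase proteases, ubiquitin ligases and regulators such as NUMB and DLK1. HEY1 and PSENEN had no window. After etoposide 92 of them were called (12.9%, beside 10.1% of all windows), 59 higher and 33 lower. After propyl gallate 93 were called (13.1%, beside 10.3%), 57 higher and 36 lower. After theophylline 86 were called (12.1%, beside 11.0%), 66 higher and 20 lower, and after 5-aza-dc 114 (16.0%, beside 14.0%), 29 higher and 85 lower. Of 32 start windows in this list, 26 had a β-value under 10% in the vehicle control.

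The largest called differences of this list are given by chemical, except the largest rise after etoposide, and several rest on few calls. After 5-aza-dc an island window of HES2, a relative of HES1, had 59.4% in the vehicle control, 67.0% with etoposide, 38.7% with propyl gallate, 37.6% with theophylline and 17.5% with 5-aza-dc. A window of RBPJ (chr4:26411001-26412000) was highest after 5-aza-dc at 90.3% and had 68.8%, 75.7%, 72.4% and 82.1% in the other libraries. Another RBPJ window (chr4:26455001-26456000) had 61.1% after theophylline on 31 calls and 100% in each other library. After etoposide an island window of DLK1, a non-canonical ligand, had 2.27% on 75 calls against 32.0% on 50 calls in the vehicle control. It had 22.8% with propyl gallate, 50.4% with theophylline and 27.4% with 5-aza-dc. After propyl gallate a window of MAML2 had 97.8% against 79.2% on 53 calls in the vehicle control. The same window had 100% with etoposide, 73.0% with theophylline and 87.5% with 5-aza-dc. A window of MAML3 had 71.4% on 13 calls after propyl gallate against 100% in the vehicle control. After theophylline a window near HES5 had 83.2% against 68.9%, with 66.7% to 73.0% in the other libraries.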

How the data were processed

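DNA methylation was measured by RRBS in 5 libraries, 1 per condition. The members and the gene lists were chosen with earlier results of these data known. Per the labels and the submitters' processing notes, the authors used FastQC 0.11.7, Trim Galore 0.5.0, Bismark 0.20.0, SAMtools 1.9 and methylKit 1.10.0 with hg38, summed CpG calls over windows of 1000 bases covered by at least 10 calls, scaled the coverage between libraries and kept shared windows. The deposited values of the vehicle control are unscaled counts. For the other 4 libraries the authors deposited a score: each call number times a factor, rounded. The β-value is a fraction the authors computed from them, printed here as a percent and as deposited.

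The factors (etoposide 1.18, propyl gallate 1.09, theophylline 1.15, 5-aza-dc 1.21) were worked out from the whole numbers missing among the coverages and used to return the calls before scaling. Fisher's exact test, planned on the deposited counts, was run on these calls, two-sided, with Benjamini-Hochberg adjustment over all windows. The code of the test was checked on simulated calls drawn independently of each other. That check held no PCR copies and no variation between libraries, so it does not cover p-values that are too small for those reasons. Intervals are 95% Wilson or Newcombe intervals, and those of means come from the binomial variance of each window. They cover counting error only. Windows named are those holding a start, those called with at least 10 points and the 2 largest called rises and falls per chemical. The edges of promoters, the HES1 and DLL1 windows, islands, called windows under 10% and the windows of few calls in DLL4 and NOTCH4 were chosen after their values were seen. The largest rise among the other pathway genes after etoposide is not reported here. Of the Notch windows, 4 had under 30 calls in a library. Coordinates are those deposited. No GRCh38 genome was used here, and RefSeq tables (GRCh38.p14) gave starts and promoter sequence. The alternatives covered the scaling, the threshold, the minimum difference, divided calls, depth, the window rule, pooling and the pseudocount. Analyses used Python 3.11.15, numpy 2.4.6, pandas 2.3.3, scipy 1.17.1, numba 0.67.0 and matplotlib 3.10.9.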

Additional observations from a re-analysis of the deposited data

How the results depend on the processing

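With 1 library per condition no library could be left out and no condition has a replicate. No paired analysis was possible because each condition had a single library. Counts of called windows are given in the order etoposide, propyl gallate, theophylline and 5-aza-dc. They were 35, 31, 33 and 52 at an adjusted p under 0.05, and 3, 3, 1 and 1 with a difference of at least 10 percentage points. At 25 points they were 0 for each. With calls divided by 2 they were 2, 4, 2 and 5, beside 1.16%, 1.17%, 1.26% and 2.71% of all windows. Divided by 5 they were 0 for each, beside 0.0156%, 0.0173%, 0.0194% and 0.0898% of all windows. By gene symbol alone they were 9, 2, 4 and 12. Of 36 alternatives for these counts, 12 stayed within 1.5 times the main count.

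The mean difference over the Notch windows kept its sign in all 28 alternatives but that by gene symbol alone with propyl gallate, -0.169 points. With all calls pooled it was 0.789 with propyl gallate, 2.09 with theophylline and -2.03 with 5-aza-dc. As a median over windows it was 0.373 with theophylline and -0.747 with 5-aza-dc, and by gene symbol alone 0.391 with theophylline. The mean log2 ratio turned to 0.0112 with etoposide for windows of at least 10%, and with 5-aza-dc it was -0.0344 there and -0.0412 with a pseudocount of 1 point. With all calls pooled, 14 of 40 means of single genes changed sign, 9 of them with intervals that included 0. The other 5 were NOTCH3 with etoposide, which turned to -2.48, DLL4 with propyl gallate to 0.484, NOTCH1 with theophylline to -0.156, JAG1 with theophylline to 1.58 and JAG1 with 5-aza-dc to 0.339. Pooling weights windows by their calls, and no other cause was tested.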
